A study of Homo sapiens with 12 samples.

Results

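RNA-seq was used here to compare resting THP-1 cells carrying the S80A form of NFKB1 with resting wild-type THP-1 cells, before any bacterial stimulus was given. The comparison covers 3281 genes in 6 of the 12 libraries of the study, 3 of wild-type and 3 of S80A cells. The genes are the union of the authors' deposited tables of genes changed by lipopolysaccharide (LPS, a component of the outer membrane of Gram-negative bacteria), 2335 listed for wild-type and 2508 for S80A cells, joined on gene identifier. THP-1 is an established line from a human monocytic leukaemia, and the phorbol ester PMA turns its cells toward macrophages. Both genotypes had received PMA (25 ng/ml, 72 hr) and then rested for 4 days without it, so every library at rest comes from PMA-differentiated cells at 0 hr of LPS. The other 6 libraries, 3 per genotype, were treated in the same way and then received LPS at 10 ng/ml for 3 hr. They are used below to measure the genotype difference again, to test whether it changed with LPS, and to see which library stood apart there. The resting comparison did not use them, except in an alternative fit of all 12 libraries. The labels do not say how the S80A cells were made or whether they are 1 clone, so the amino acid change and other features of the S80A line cannot be told apart. Nothing in the labels ties the replicates to separate cultures either, and the p-values below therefore rest on a spread between samples that may be technical.

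NFKB1 encodes p105, which is processed to p50, the DNA-binding NF-κB subunit that lacks a transactivation domain of its own. Paired with RelA or c-Rel, p50 takes part in activation, and as a homodimer it can occupy κB sites and hold target genes back in unstimulated macrophages. The study asks what the phosphorylation of serine 80 of p50 does for transcription, and in S80A this serine is replaced by alanine, which cannot be phosphorylated. In the reference genome GRCh38 the codon lies in exon 5 of NFKB1, at chr4:102537939-102537941 on the plus strand, in the transcripts that encode 968 residues. The coding sequence around it is shown because it is the position the 2 genotypes differ in by label. The capitals mark the codon of serine 80, with 30 bases on each side, and no sequence of the S80A cells was available:

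NFKB1 codon 80: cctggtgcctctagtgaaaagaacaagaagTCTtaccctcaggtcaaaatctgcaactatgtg

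Expression of NFKB1 itself did not separate the genotypes. It stood at 848, 791 and 987 scaled reads (counted reads over the size factor of their library) in wild-type replicates 1 to 3 and at 759.9, 928 and 1062 in S80A replicates 1 to 3, so the groups overlapped. The S80A minus wild-type difference was 0.06 ± 0.16 on the log2(scaled reads + 1) scale (SE), with a limma adjusted p of 0.802. The number of reads on a gene does not report its codons, so this level is no check of the genotype labels.

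The 6 resting libraries held between 1924562 reads (wild-type replicate 1) and 2914087 reads (S80A replicate 2) on the listed genes, which are part of each library and not its depth. No pair of replicates agreed within sampling noise, with chi-square per gene between 9.44 and 69.8. S80A replicate 1 stood apart from S80A replicates 2 and 3. It was at least 1 log2 away from both of them, on the same side, with those other libraries within 1 log2 of each other, for 305 genes, which is 9.30% of the 3281. The same count was 51 for S80A replicate 2, 147 for S80A replicate 3, and 119, 38 and 46 for wild-type replicates 1, 2 and 3. Results that rest on S80A replicate 1 are therefore also given without it, a setting planned for the resting libraries. The labelled cell type could be checked on few markers, because the tables hold only genes listed as LPS-responsive. The macrophage markers CD14, CD163 and MERTK were listed and were expressed in all 6 libraries, at the levels given below. None of the listed markers of T cells, fibroblasts or endothelium, epithelium, or erythroid cells was in the tables, and the B cell markers CD79B and PAX5 summed to 34.7 to 74.8 in wild-type and 34.6 to 78.7 in S80A libraries.

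Of 3281 genes, 666 (20.3%) were higher and 350 (10.7%) were lower in S80A cells at a limma adjusted p under 0.05, so 31% were called in either direction. At an unadjusted p under 0.05 there were 1471. The median difference was 1.30 log2 among the higher and -1.35 log2 among the lower genes. Differences over 2 log2 numbered 164 upward and 90 downward, and differences over 3 log2 numbered 58 upward and 27 downward. In all 1016 called genes the wild-type and S80A libraries did not overlap, as was so for 1612 genes (49.1%) in all. The excess of higher genes depended on the scaling. With the deposited size factors the median difference over all 3281 genes was 0.19 log2 toward S80A, and differences below are to be read against it. With TMM factors from the listed genes, which centre that median at -0.000366, 469 genes (14.3%) were higher and 526 (16%) lower, so 47.1% of called genes were higher in place of 65.6%. With median-of-ratios factors from the listed genes the counts were 486 and 484. All 469 genes higher with TMM factors were among the 666, and all 350 lower genes were among the 526. Without S80A replicate 1 the counts were 794 higher (24.2%) and 413 lower (12.6%), of which 590 and 307 were called the same way with it. The counts fell to 384, 357 and 339 higher genes (11.7%, 10.9% and 10.3%) without wild-type replicates 1, 2 and 3. Lower genes then numbered 223, 182 and 180 (6.80%, 5.55% and 5.49%). Without S80A replicate 2 there were 333 higher (10.1%) and 206 lower genes (6.28%), and without S80A replicate 3 there were 575 (17.5%) and 333 (10.1%). List counts below that leave out 1 library are to be read against these shares and not against 20.3% and 10.7%.

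**Figure D1:**
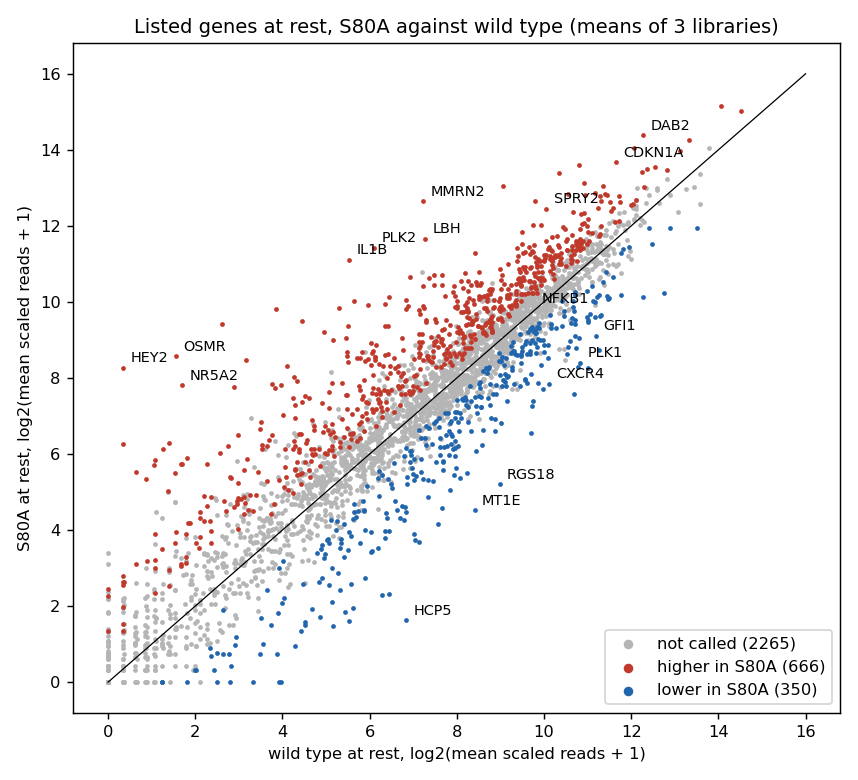
Mean expression of the 3281 listed genes at rest in wild-type (x axis) and S80A cells (y axis), both as log2(mean scaled reads + 1) over 3 libraries, with 1 point per gene and the line of equality. The 666 higher genes (red) and 350 lower genes (blue) lie on both sides across the whole range of expression, while NFKB1 lies near the line.

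The listed genes had been chosen by the authors for their response to LPS with these same resting libraries, so the shares describe LPS-responsive genes and not the transcriptome. Called genes came from every part of the union. Among the 1562 genes listed for both genotypes 313 were higher and 130 lower (28.4% called). Among the 773 listed for wild-type cells alone 200 were higher and 83 lower (36.6%), and among the 946 listed for S80A cells alone 153 were higher and 137 lower (30.7%). A gene can enter a table of 1 genotype through its resting level there, so these shares are a description. Of the 3281 genes, 130 had at most 3 reads in each resting group. The genes nearest the threshold were ID3, STARD10, LOC257396, LOC101929758 and LGALS12 inside it (adjusted p from 0.0496 to 0.0498) and ZNF485, KCNJ11, SLC41A2, CACHD1 and TSPY26P outside it (0.0502 to 0.0506).

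The largest differences upward were those of genes that wild-type cells scarcely expressed. HEY2, a transcriptional repressor of the Notch pathway at chr6:125747664-125761269, had 0, 0.804 and 0 scaled reads in wild-type replicates 1 to 3 and 67.7, 381 and 472 in S80A replicates 1 to 3. Over the groups these were 1 read against 1009. After division by the summed size factors of each group the ratio was 1131 (95% counting interval 202 to 44704, counting error only), and the ratios of genes with few reads below are made in the same way. S80A replicate 1 was far above wild type and far below the other S80A libraries, and the difference was 7.57 ± 0.80 log2 with it (SE, adjusted p = 0.00405) and 8.45 without it (0.00113). OSMR, the oncostatin M receptor subunit at chr5:38845858-38945596, was at 2.60, 0 and 3.23 in wild-type and at 141, 496 and 501 in S80A libraries. Its groups lay 7.05 ± 0.78 log2 apart (adjusted p = 0.00423). NR5A2, a nuclear receptor at chr1:200027602-200177424, was at 4.33, 0.804 and 1.61 against 112, 208 and 351 (6.11 ± 0.59 log2, adjusted p = 0.00309). The same picture held for FAM65C (present symbol RIPOR3), with 1 read against 249 and a size-factor-adjusted ratio of 279 (49.6 to 11065).

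Other large differences were on genes with more reads in wild-type cells, although EDNRA, FJX1 and PPP1R16B were low there. MMRN2, an extracellular matrix glycoprotein of the multimerin family at chr10:86935540-86969481, was at 169, 139.9 and 136 scaled reads in wild-type and 4599, 7664 and 6958 in S80A libraries. The wild-type libraries were close to each other and every S80A library was far above them, with means 43.2-fold apart (5.40 ± 0.22 log2, SE, adjusted p = 0.00173). PPP1R16B, a regulatory subunit of protein phosphatase 1, was at 35.5, 13.7 and 12.9 against 627, 747 and 789, and S80A replicate 1 was close to the other S80A libraries there. FJX1, a secreted four-jointed homologue at chr11:35618419-35620868, was at 11.3, 14.5 and 14.5 against 402, 942 and 1376, a ratio of means of 67.6. LBH, a transcription cofactor, was at 158, 163 and 139.6 against 1746, 3960.3 and 4043, and TUBA8, an α-tubulin, at 38.1, 39.4 and 37.9 against 414, 1314 and 1021. EDNRA, an endothelin receptor, was at 8.66, 7.24 and 8.07 against 87.6, 449.9 and 521. In FJX1, LBH, TUBA8 and EDNRA S80A replicate 1 was the lowest of its group while remaining well above all wild-type libraries. Adjusted p-values of PPP1R16B, FJX1, LBH, TUBA8 and EDNRA were between 0.00278 and 0.00761.

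MMP1 and IL1B were the least settled of the 12 largest. MMP1, interstitial collagenase at chr11:102789920-102798160, was at 0, 7.24 and 8.07 scaled reads in wild-type libraries and at 40.8, 647 and 1354 in S80A libraries (6.30 ± 1.58 log2, SE, adjusted p = 0.0330). IL1B, the inflammatory cytokine interleukin-1β at chr2:112829751-112836903, was at 90.9, 12.1 and 33.1 against 152, 1802 and 4669. S80A replicate 1 was within 2 log2 of wild-type replicate 1 for IL1B, the other S80A libraries were far higher, and the difference of 4.98 ± 1.43 log2 had an adjusted p of 0.0491 with S80A replicate 1 and of 0.0104 without it. IL1B did not pass without wild-type replicates 1, 2 or 3 (0.0762, 0.141 and 0.127), without S80A replicate 2 or 3 (0.143 and 0.106), with TMM factors (0.0544) or with the replicate number as a block (0.0925). MMP1 did not pass without wild-type replicates 1, 2 or 3 (0.0900, 0.0780 and 0.0762) or S80A replicate 2 or 3 (0.108 and 0.0805). For FJX1 the RefSeq promoter (chr11:35618210-35618509, plus strand, GRCh38.p14, 250 bases before to 50 after the start) holds overlapping matches to the κB consensus, in capitals:

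FJX1 promoter: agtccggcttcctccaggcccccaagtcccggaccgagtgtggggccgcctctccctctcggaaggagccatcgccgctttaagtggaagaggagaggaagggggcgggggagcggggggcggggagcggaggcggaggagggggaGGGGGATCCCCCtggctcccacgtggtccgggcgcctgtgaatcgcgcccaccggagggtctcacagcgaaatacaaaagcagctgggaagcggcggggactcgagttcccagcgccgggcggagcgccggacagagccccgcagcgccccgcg

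**Figure D2:**
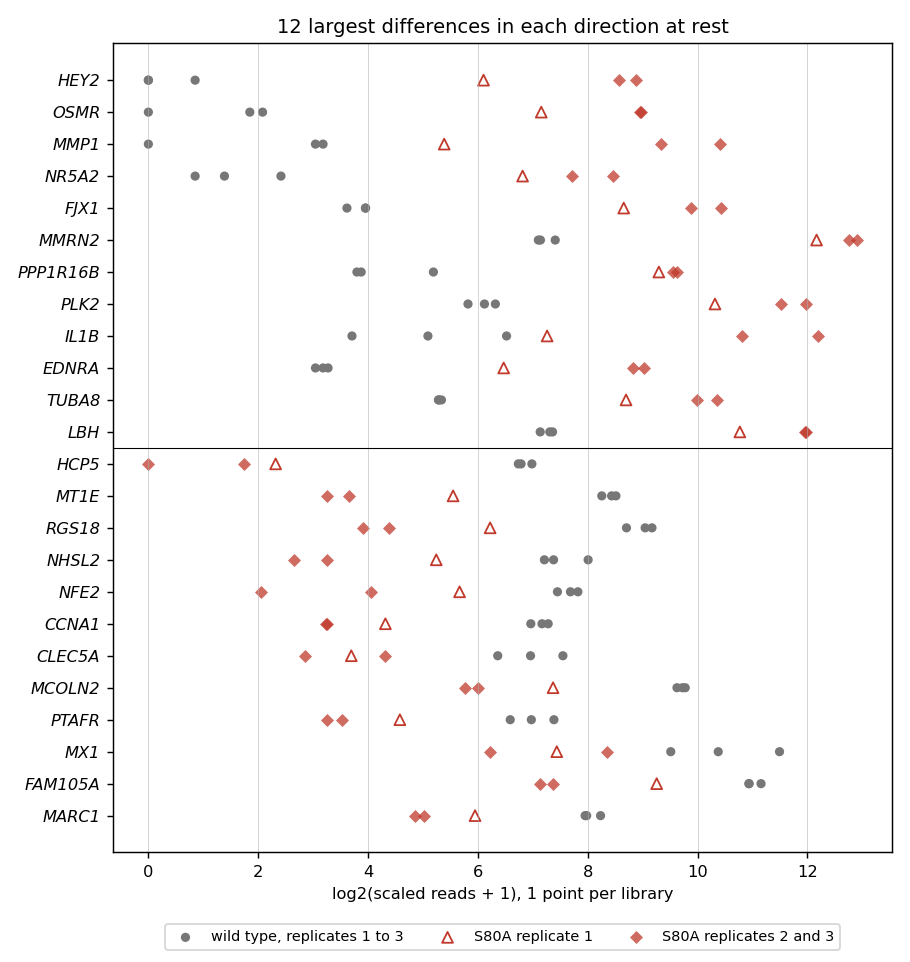
The 12 largest differences in each direction at rest, with 1 point per library on a log2(scaled reads + 1) axis: grey circles are wild-type libraries, open triangles S80A replicate 1 and diamonds S80A replicates 2 and 3. Groups do not overlap in any of the 24 genes, and S80A replicate 1 is the S80A library nearest wild type in all 12 upward genes and in 10 of the 12 downward genes.

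The largest differences downward included a non-coding RNA, a metallothionein and several receptors and regulators of blood cells. HCP5, a long non-coding RNA of the HLA region at chr6:31400702-31477506, was at 126, 109 and 106 scaled reads in wild-type and at 3.98, 2.33 and 0 in S80A libraries (-5.49 ± 0.62 log2, SE, adjusted p = 0.00434). MT1E, a metal-binding metallothionein at chr16:56625475-56627112, was at 365, 305 and 345 against 45.8, 8.53 and 11.5 (-4.25 ± 0.62 log2, adjusted p = 0.00776). S80A replicate 1 was the highest of its group in both genes and still far below wild type. RGS18, a brake on G protein signalling found in myeloid cells and platelets, at chr1:192158457-192185815, was at 575, 417 and 528 against 73.7, 14.0 and 19.9, a 14.1-fold difference in means. MCOLN2, a lysosomal cation channel, was at 876, 789 and 845 against 164, 62.8 and 53.5. PTAFR, the receptor of platelet-activating factor, was at 95.3, 125 and 166 against 22.9, 8.53 and 10.5. CLEC5A, a myeloid lectin, was at 186, 81.2 and 123 against 12.0, 6.20 and 18.9, and there S80A replicate 1 lay between the other two. CCNA1, cyclin A1, was at 124, 154 and 143 against 18.9, 8.53 and 8.40. MARC1 (present symbol MTARC1), a mitochondrial amidoxime reductase, was at 247, 252 and 300.1 against 60.8, 27.9 and 31.5. Adjusted p-values of RGS18, MCOLN2, PTAFR, CLEC5A, CCNA1 and MARC1 were between 0.00345 and 0.00846, and these calls held under all 17 alternatives.

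The other genes among the 12 largest downward differences passed with less room. NHSL2 was at 256, 147 and 165 scaled reads in wild-type and 36.9, 8.53 and 5.25 in S80A libraries (adjusted p = 0.0149). NFE2, a transcription factor of platelet and red cell precursors, was at 225, 174 and 205 against 49.8, 15.5 and 3.15 (0.0305). FAM105A (present symbol OTULINL) was at 2281, 1956 and 1963 against 611, 139 and 164 (0.0149), with S80A replicate 1 well above the other S80A libraries. NHSL2 did not pass without wild-type replicate 1 or 3 or S80A replicate 2 (0.0529 to 0.0595). NFE2 and FAM105A did not pass without any 1 of the wild-type replicates 1, 2 and 3 or without S80A replicate 2 (0.0863 to 0.0930 for NFE2 and 0.0501 to 0.0543 for FAM105A).

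The mitotic genes CDC20, PLK1 and AURKA were lower and the growth arrest gene CDKN1A was higher in S80A cells. The members of this list and of those below were chosen with earlier results of these data known. Their shares are therefore a description. Of 13 listed cell cycle and p53 response genes, 4 were higher and 3 lower (30.8% and 23.1%, against 20.3% and 10.7% of all genes), with a list median of -0.07 log2 against 0.19 over all genes, and 3 and 3 were called with TMM factors. CDC20, an activator of the anaphase-promoting complex at chr1:43358955-43363203, was at 7911, 6919 and 5956 scaled reads in wild-type and 1714, 1089.7 and 835 in S80A libraries (-2.57 ± 0.29 log2, SE, adjusted p = 0.00426). PLK1, the main mitotic polo-like kinase at chr16:23677656-23690367, was at 1962, 1866 and 1625 against 374, 348 and 291 (-2.43 ± 0.14 log2, adjusted p = 0.00173). All 3 S80A libraries were close together for PLK1, replicate 1 included. AURKA, the mitotic kinase Aurora A, was at 1767, 1397 and 1484 against 575, 459.9 and 465 (adjusted p = 0.00285). CDKN1A, the cyclin-dependent kinase inhibitor p21 at chr6:36676460-36687339, went the other way, at 3284, 3248 and 3049 in wild-type and 12500.3, 14625 and 12287 in S80A libraries, a 4.11-fold difference (2.04 ± 0.11 log2, adjusted p = 0.00173). S80A replicate 1 did not stand apart for CDKN1A. PLK2 and PLK3, stress-responsive polo-like kinases, were at 78.8, 55.5 and 68.6 against 1275, 2941 and 4011 and at 84.0, 92.5 and 87.9 against 200.2, 408 and 344. The adjusted p was 0.00285 for PLK2 and 0.00965 for PLK3. GADD45A, a growth arrest gene, was also higher (adjusted p = 0.0248), though not without any 1 of wild-type replicates 1 to 3 or S80A replicate 2 (0.0631 to 0.0781) nor with TMM factors.

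The RefSeq promoters of CDC20 (chr1:43358731-43359030) and PLK1 (chr16:23678639-23678938), both on the plus strand of GRCh38.p14, are shown as examples that hold a motif. Both genes were lower in all S80A libraries, as was every gene called lower. Each promoter printed in this text holds the motif marked in it, and promoters without a match are not shown. Capitals mark TTTGAA on either strand, the core of the cell cycle genes homology region:

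CDC20 promoter: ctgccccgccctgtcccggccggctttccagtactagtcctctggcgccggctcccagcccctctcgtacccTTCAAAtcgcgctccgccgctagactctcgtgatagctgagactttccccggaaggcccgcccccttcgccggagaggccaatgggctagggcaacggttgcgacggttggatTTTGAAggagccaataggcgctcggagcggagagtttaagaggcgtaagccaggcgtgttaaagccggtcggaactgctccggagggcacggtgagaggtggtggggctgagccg
PLK1 promoter: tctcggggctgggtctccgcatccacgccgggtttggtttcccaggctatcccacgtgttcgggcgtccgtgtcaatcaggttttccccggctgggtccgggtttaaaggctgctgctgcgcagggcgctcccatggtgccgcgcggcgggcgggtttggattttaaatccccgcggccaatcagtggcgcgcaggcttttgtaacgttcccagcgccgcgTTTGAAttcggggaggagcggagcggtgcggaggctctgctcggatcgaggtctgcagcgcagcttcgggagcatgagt

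TTTGAA stood in 15.7% of the 261 promoters of lower genes, in 9.48% of the 496 promoters of higher genes, in 10.6% of the 2423 listed genes with a RefSeq promoter and in 15.4% of all 27305 promoters in the table. The κB consensus stood in 6.13%, 6.65%, 8.87% and 5.72%, in the same order. The AP-1 site, TGACTCA or TGAGTCA, stood in 3.07%, 4.44%, 4.04% and 4.92%. The RBPJ core TGGGAA, bound by the Notch pathway's DNA-binding factor, stood in 23.4%, 20.0%, 21.2% and 24.3%. All were searched on both strands, and a match describes these letters in this window and not a bound site.

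Of 25 listed NF-κB subunits and feedback regulators, 3 were higher and 1 lower (12% and 4%, against 20.3% and 10.7% of all genes). The list median of 0.12 log2 turned to -0.07 with TMM factors, which called 2 higher and 4 lower. Without S80A replicate 1 the counts were 8 and 1, or 32% higher against 24.2% of all genes, and without any 1 of S80A replicate 2 and wild-type replicates 1 to 3 they were 1 and 0. NFKBIE, the inhibitor IκBε, was at 1173, 843 and 887 scaled reads in wild-type and 1682, 2067 and 2144 in S80A libraries (1.03 ± 0.17 log2, SE, adjusted p = 0.0105), a call that held under all 17 alternatives. TRAF1, a signalling adaptor induced by NF-κB, was at 49.4, 46.6 and 62.1 against 113, 264 and 282 (adjusted p = 0.0188), and IKBKE, an IκB kinase-related kinase, was the third higher gene (0.0347). TNFAIP2, a TNF-induced gene, was lower, at 1792, 2322 and 2542 against 1442, 890.4 and 797 (0.0286), and its S80A replicate 1 came closest to wild type. NFKB2, RELB, REL, NFKBIA and TNFAIP3 did not pass, with adjusted p-values of 0.107, 0.188, 0.929, 0.229 and 0.107. TRAF1 did not pass without wild-type replicate 1, 2 or 3 or S80A replicate 2 (0.0555 to 0.0719), and IKBKE and TNFAIP2 lost their calls without any 1 of the wild-type libraries or S80A replicates 2 and 3 (up to 0.103 and 0.0969). IKBKE was also lost with TMM factors (0.0584) and TNFAIP2 with the replicate block (0.0722).

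Of 26 listed cytokines and growth factors 3 were higher (IL1B, CSF1 and LIF) and 2 lower (TNFSF13B and IL18), which is 11.5% and 7.69% against 20.3% and 10.7% of all genes. Without S80A replicate 1 there were 7 higher and 2 lower, and without any 1 of the other 5 libraries 1 higher and 0 to 2 lower. CSF1, the macrophage growth factor, was at 17.3, 40.2 and 32.3 scaled reads in wild-type and 119, 883 and 779 in S80A libraries, with replicate 1 nearer wild type (3.89 ± 0.86 log2, SE, adjusted p = 0.0234). LIF, a cytokine of the IL-6 family, had 0.866, 0 and 0 against 2.99, 5.43 and 7.35, levels close to no reads. TNFSF13B, the B cell survival factor BAFF, was at 66.7, 106 and 69.4 against 17.9, 20.2 and 6.30 (adjusted p = 0.0161). IL18, an inflammasome substrate, was at 203, 213 and 215 against 130.5, 122 and 152 (0.0208). TNF was at 63.2, 47.5 and 90.3 in wild-type and 31.9, 63.6 and 78.7 in S80A libraries, overlapping groups with an adjusted p of 0.680. CSF1 lost its call without any 1 of wild-type replicates 1 to 3 or S80A replicates 2 and 3 (up to 0.0781), IL18 without wild-type replicates 1 to 3 or S80A replicate 2 (0.0609 to 0.0851), and TNFSF13B without wild-type replicate 2 or 3 (0.0606 and 0.0545).

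Among 22 listed chemokines and their receptors 2 were higher and 3 lower (9.09% and 13.6%, against 20.3% and 10.7% of all genes). Without S80A replicate 1 the counts were 5 and 3, and without any 1 of the other 5 libraries 0 to 1 higher and 1 to 4 lower. CXCR4, the receptor of CXCL12 at chr2:136114349-136118165, was at 1027, 1052 and 1264 scaled reads in wild-type and 259, 238 and 191 in S80A libraries. The 3 S80A libraries were close together, 4.86-fold below wild type in the mean (-2.28 ± 0.16 log2, SE, adjusted p = 0.00230), and the call held under all alternatives. CXCR5, a lymphoid homing receptor, had 3 reads over the wild-type group against 132 over the S80A group, a size-factor-adjusted ratio of 49.3 (95% counting interval 16.5 to 242), with S80A replicate 1 at 7.97 and the others at 52.7 and 58.8 scaled reads (0.0151). CCL5, a T cell and monocyte attractant, was at 449, 634 and 618 against 217, 320.3 and 261 (0.0158), and CCL22, a ligand of CCR4, at 76.2, 68.4 and 73.4 against 38.8, 39.6 and 43.0 (0.0168). CCL20, the ligand of CCR6 and a known NF-κB target, was at 10.4, 2.41 and 6.45 against 21.9, 143 and 479. The groups of CCL20 did not overlap, and S80A replicate 1 lay near wild type. The adjusted p of 0.0480 for CCL20 rose to as much as 0.140 when wild-type replicate 1, 2 or 3 or S80A replicate 2 or 3 was left out. It was 0.0541 with TMM factors and 0.0754 with the replicate block. CXCR5 and CCL22 did not pass without wild-type replicate 1, 2 or 3 or S80A replicate 2 (0.0525 to 0.0572 for CXCR5 and 0.0599 to 0.0746 for CCL22), nor CCL5 without wild-type replicate 2 or 3 (0.0610 and 0.0649). The CCL20 promoter (RefSeq, chr2:227813592-227813891, plus strand, GRCh38.p14) holds 1 match to the κB consensus, in capitals:

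CCL20 promoter: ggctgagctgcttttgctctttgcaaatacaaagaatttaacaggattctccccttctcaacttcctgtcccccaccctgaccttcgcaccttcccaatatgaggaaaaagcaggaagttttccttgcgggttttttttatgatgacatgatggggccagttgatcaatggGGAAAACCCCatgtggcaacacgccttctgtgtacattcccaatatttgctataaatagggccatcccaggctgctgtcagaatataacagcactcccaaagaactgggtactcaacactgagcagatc

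Most interferon-stimulated genes lay on the lower side in S80A cells, with a list median of -0.56 log2 over 46 listed genes against 0.19 over all genes. Of the 46, 3 were called higher and 5 lower, near or below the background shares. Of the 38 not called, 29 were on the lower and 9 on the higher side. Summed over the list, wild-type replicates 1 to 3 held 29136, 59826 and 42051 scaled reads and S80A replicates 1 to 3 held 22939, 37269 and 21618. These sums overlapped, with S80A replicate 2 above wild-type replicate 1, and replicate 2 was the highest in both genotypes. The side of the list median is therefore a description and no shift of the whole list beyond the spread of the libraries. The replicate block called 4 higher and 12 lower, TMM factors 3 and 9, and edgeR 4 and 11. MX1, an antiviral GTPase at chr21:41420304-41459214, was at 729, 2881 and 1329 scaled reads in wild-type and 172, 327 and 73.5 in S80A libraries (-3.12 ± 0.72 log2, SE, adjusted p = 0.0264). The wild-type libraries themselves spread widely, and MX1 did not pass without wild-type replicate 2 or 3 (0.0751 and 0.0811) or S80A replicate 1 or 3 (0.0507 and 0.0562). Guanylate-binding proteins, GTPases of cell-autonomous immunity, went different ways. GBP5 was at 73.6, 60.3 and 42.8 against 10.96, 3.10 and 3.15 (adjusted p = 0.00853), while GBP2 was at 206, 207 and 207 against 394, 445 and 338 (0.00757) and GBP3 at 201, 258 and 223 against 369, 502 and 491 (0.0124). IRF8, a transcription factor of the monocyte lineage, was at 5169, 5008 and 4625 against 2016, 783 and 541, with replicate 1 the highest of the S80A libraries (0.0188). GBP4 was higher, and HERC5 and IDO1 were lower, IDO1 with no read in the S80A group and between 0.804 and 2.42 scaled reads in wild-type libraries. The chromosome 1 GBP genes resemble each other, so the counting could divide their reads. IRF8 did not pass without wild-type replicates 1 to 3 or S80A replicate 2 (0.0642 to 0.0734), and GBP3 not without wild-type replicate 3 (0.0512). GBP4 did not pass without wild-type replicate 1 or 3 or S80A replicate 2 (up to 0.0632), HERC5 not without wild-type replicate 2 or 3 (up to 0.0583) and IDO1 not without S80A replicate 2 or 3 (0.0814 and 0.0632) nor by edgeR (0.131) or DESeq2 (0.388).

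Immediate early and AP-1 transcription factor genes, whose products respond within minutes to stimuli, included 13 higher and 2 lower of 30 listed members in resting S80A cells. These are 43.3% and 6.67%, against 20.3% and 10.7% of all genes, and the list median was 0.69 log2. With TMM factors 11 were higher and 2 lower, and without S80A replicate 1 the counts were 16 and 5. Without S80A replicate 2 or 3 there were 8 and 10 higher, and without wild-type replicates 1, 2 and 3 there were 8, 7 and 9, with 2 lower each time. JUN, at chr1:58780788-58784327, was at 789.8, 993 and 839.7 scaled reads in wild-type and 2236, 3145 and 3282 in S80A libraries (1.71 ± 0.18 log2, SE, adjusted p = 0.00420). KLF4, a zinc finger factor of monocyte differentiation, was at 548, 528 and 473 against 1235, 1208 and 1420.0 (1.32 ± 0.11 log2, 0.00278). DUSP1, a phosphatase that inactivates MAP kinases, was at 132, 101 and 87.9 against 415, 434 and 418 (1.99 ± 0.18 log2, 0.00285). In JUN the 3 S80A libraries lay within a narrow range well above wild type, and in KLF4 and DUSP1 S80A replicate 1 was level with the others. ATF3, a stress-induced repressor, was at 229, 356 and 292 against 875, 2389 and 1950.0 (0.0105), IER2 at 333, 416 and 372 against 872, 1156 and 1312, and DUSP6, an ERK phosphatase, at 2434, 2898 and 2774 against 5848, 7447 and 8782. JUNB, JUND, KLF6, KLF10, EGR3, MAFF and DUSP5 were the other higher members. Both lower members were BATF3, a partner of JUN in dendritic cells, at 52.8, 108 and 80.7 against 14.9, 14.0 and 9.45 (0.00626), and MYC, a driver of growth, at 1854, 2358 and 1859 against 899, 766 and 660.2 (0.00472). MAFF was called neither with TMM factors (0.0562) nor without wild-type replicates 1 to 3 or S80A replicates 2 and 3 (up to 0.141), and JUNB not with TMM factors (0.0537). JUND, EGR3, KLF6, KLF10 and DUSP5 lost their calls without at least 1 single library, with adjusted p-values up to 0.0656, 0.0879, 0.0939, 0.0544 and 0.0790. EGR3 was also not called by edgeR (0.0583) or DESeq2 (0.129).

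Of 33 listed lineage and developmental transcription factors 12 were higher and 4 lower, or 36.4% and 12.1% against 20.3% and 10.7% of all genes, with a list median of 0.67 log2. The counts were 8 and 5 with TMM factors, 5 and 1 without S80A replicate 2 or wild-type replicate 2, 8 and 1 without wild-type replicate 1, 8 and 2 without wild-type replicate 3, and 9 and 2 without S80A replicate 3. NR5A2 is described above. DLX3, a homeobox gene, was at 182, 37.8 and 38.7 scaled reads in wild-type and 1356, 1103 and 924 in S80A libraries, where replicate 1 was the highest of its group in both genotypes (4.09 ± 0.65 log2, SE, adjusted p = 0.00940). HES1, a Notch effector, was at 48.5, 16.1 and 21.8 against 154, 154 and 171 (0.00980). PPARG, a nuclear receptor of lipid handling, was at 462, 577 and 544 against 1108, 2169 and 1782 (0.0101), and MAF, a macrophage factor, at 1618, 2193 and 2333 against 4509, 3708 and 5783 (0.0151). VDR, the vitamin D receptor, was lower, at 558, 519.6 and 477 against 181, 73.7 and 77.7 (-2.34 ± 0.37 log2, 0.00940), with S80A replicate 1 nearest wild type. CEBPA, RARA and ZEB2 were the other lower members, while TCF4, TCF7L2, LEF1, ID2, ID3 and NFIL3 were among the other higher ones. Each of these last 9 lost its call without at least 1 single library, with adjusted p-values up to 0.142 (ID3). LEF1 and TCF4 were also lost with the replicate block (0.0834 and 0.0517).

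Of 38 listed signalling receptors, kinases and Wnt genes 17 were higher and 3 lower (44.7% and 7.89%, against 20.3% and 10.7% of all genes), with a list median of 1.09 log2 against 0.19 over all genes. The counts were 16 and 5 with TMM factors and 21 and 4 without S80A replicate 1, and between 12 and 14 were higher and 1 to 4 lower without any 1 of the other libraries. PDGFA, a growth factor for mesenchymal cells, was at 612, 458 and 531 scaled reads in wild-type and 4804, 9991 and 10589.8 in S80A libraries (3.91 ± 0.34 log2, SE, adjusted p = 0.00285). JAG1, a Notch ligand, was at 137, 154 and 134 against 983, 609 and 864 (2.50 ± 0.20 log2, 0.00278), with S80A replicate 1 the highest. FZD4, a Wnt receptor, was at 49.4, 40.2 and 44.4 against 400.4, 732 and 856 (3.80 ± 0.31 log2, 0.00278). The VEGF receptor genes KDR and FLT1 were at 3.46, 2.41 and 1.61 against 38.8, 48.1 and 88.2 and at 1.73, 2.41 and 2.42 against 19.9, 69.0 and 67.2 (0.00309 and 0.00623). Their co-receptor gene NRP2 was at 211, 354 and 257 against 1608, 1622 and 1299 (0.00285). RGS16, a brake on G protein signalling, was at 211, 130.3 and 146 against 926, 1916 and 1898 (0.00423), opposite in direction to RGS18. PIK3CD, the leukocyte PI3-kinase catalytic subunit p110δ, was lower, at 2150.4, 2371 and 2348 against 801, 881 and 660.2 (-1.56 ± 0.13 log2, 0.00285). The purinergic receptor genes P2RY2 and P2RX7, which sense extracellular ATP, were the other lower members, at 2819, 2441 and 2142 against 776, 307 and 194 and at 137, 240.5 and 237 against 32.9, 78.3 and 53.5. P2RY2 did not pass without wild-type replicate 1 or 2 or S80A replicate 2 (0.0533 to 0.0588), nor P2RX7 without wild-type replicate 2 or 3 or S80A replicate 3 (0.0504 to 0.0756).

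Of 21 listed adhesion, matrix and cytoskeleton genes 6 were higher and 1 lower (28.6% and 4.76%, against 20.3% and 10.7% of all genes). There were 13 higher (61.9%) without S80A replicate 1, against 24.2% of all genes. Without S80A replicate 2 or wild-type replicate 1 or 2 there were 3 (14.3%, against 10.1% to 11.7% of all genes). Without wild-type replicate 3 there were 4 (19.0%, against 10.3%), with 1 lower each time. ITGB3, the β3 integrin, was at 4.33, 3.22 and 4.03 scaled reads in wild-type and 19.9, 81.4 and 55.6 in S80A libraries (3.25 ± 0.53 log2, SE, adjusted p = 0.0101). THBS1, the matrix glycoprotein thrombospondin, was at 74.5, 83.6 and 82.3 against 274, 738 and 960.3 (0.0110), and TPPP, a tubulin polymerization protein, at 16.5, 10.5 and 8.87 against 92.6, 64.4 and 88.2 (0.00423). ICAM1, a leukocyte adhesion ligand, was at 641, 807 and 1127 against 2056, 4728 and 5632 (0.0175). MMP12, macrophage elastase, had 2 reads against 141, a size-factor-adjusted ratio of 79.0 (95% counting interval 21.5 to 659, adjusted p = 0.0330). SELPLG, the P-selectin ligand, was the 1 lower member, at 1099, 1061 and 876 against 292, 191 and 139 (-2.34 ± 0.29 log2, 0.00521). Of 15 listed coagulation, serpin and prostanoid genes 4 were higher and 1 lower (26.7% and 6.67%), and 2 were higher without S80A replicate 2 or wild-type replicate 2 or 3. PLAUR, the urokinase receptor, was at 1299.9, 871 and 771 against 3341, 4885 and 4263 (2.10 ± 0.25 log2, 0.00472), and SERPINE2, a protease inhibitor, at 48.5, 50.7 and 48.4 against 328, 1419 and 1366 (4.10 ± 0.60 log2, 0.00776). SERPINB8 was lower, at 1823, 1558 and 1662 against 754, 602 and 709 (0.00309). ICAM1 did not pass without wild-type replicate 1 or 2 or S80A replicate 2 (0.0614 to 0.0693), and MMP12 lost its call without any 1 of wild-type replicates 1 to 3 or S80A replicates 2 and 3 (up to 0.108). MMP12 was also lost with the replicate block (0.0619). PLAU and PTGS2, the other higher members, lost theirs without at least 1 single library (up to 0.0698 and 0.0913).

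Of 22 listed anti-inflammatory and signal-limiting genes 8 were higher and 2 lower, or 36.4% and 9.09% against 20.3% and 10.7% of all genes. The counts were 5 and 2 with TMM factors, and 4 were higher without S80A replicate 2 or wild-type replicate 2 or 3 and 5 without S80A replicate 3. SPRY2, an inhibitor of receptor tyrosine kinase signalling, was at 1238, 1008 and 939.7 scaled reads in wild-type and 4426, 6175 and 6214 in S80A libraries, 5.28-fold higher in the mean (2.39 ± 0.19 log2, SE, adjusted p = 0.00278). TGFBR2, a TGF-β receptor, was at 1502, 1299 and 1502 against 3279.7, 3845 and 4580.2 (0.00401), and ZFP36L1, which drives mRNA decay, at 2712, 3176 and 2898 against 5333, 7359 and 6230.0 (0.00653). The lower members were CISH, a cytokine signalling suppressor, at 121, 121 and 88.7 against 34.9, 10.9 and 9.45, and SMAD3, a TGF-β effector, at 359, 697 and 620.3 against 219, 196 and 243. Of 9 listed phagocytosis and Fc receptor genes 4 were higher and 1, C3AR1, lower (44.4% and 11.1%). DAB2, an endocytic adaptor, was at 3585, 5515 and 5732 against 17481, 23627 and 23298 (2.14 ± 0.24 log2, 0.00436). MERTK, a receptor for apoptotic cells, was at 857, 826 and 1014 against 1826, 2539 and 1978 (0.00581), and C5AR2, a complement C5a receptor, at 314, 396 and 384 against 1397, 2074 and 1796 (2.25 ± 0.18 log2, 0.00278). In all of SPRY2, DAB2 and C5AR2 S80A replicate 1 was the lowest of its group and far above wild type. CISH did not pass without wild-type replicate 1 or 2 or S80A replicate 2 (0.0558 to 0.0595), nor SMAD3 without wild-type replicate 2 or 3 or S80A replicate 2 (0.0649 to 0.0774).

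Of 24 listed pattern recognition and inflammasome genes 4 were higher and 3 lower, which is 16.7% and 12.5% and near the 20.3% and 10.7% of all genes, and 4 and 4 were called with TMM factors. TLR1 and TLR6, partners of TLR2 in the recognition of bacterial lipopeptides, were at 357, 351 and 384 against 882, 1053 and 1297 and at 299, 316 and 343 against 592, 715 and 754 scaled reads (adjusted p = 0.00366 and 0.00471). They are neighbouring, closely similar genes on chromosome 4, and their reads cannot be told apart with certainty. SCARF1, a scavenger receptor, was at 36.4, 70.0 and 56.5 against 161, 240.4 and 207 (0.00929). NOD2, the intracellular sensor of muramyl dipeptide, was lower, at 246, 241 and 252 against 93.6, 51.2 and 37.8 (-2.10 ± 0.34 log2, SE, 0.0101), as was CLEC5A above. CD163, a haemoglobin scavenger receptor of macrophages, was at 1387, 2472 and 3031 against 1045, 1134 and 867 (0.0452). CD163 did not pass without wild-type replicate 2 or 3 or any 1 of the S80A replicates (0.0774 to 0.133) or with the replicate block (0.0704), and CASP4, the fourth higher gene, lost its call without any of 4 single libraries (up to 0.0649). Of 11 listed antigen presentation and costimulation genes 1 was higher and 1, SLAMF1, lower (9.09% each, against 20.3% and 10.7% of all genes). The higher gene was SLAMF7, a surface receptor of activated leukocytes, at 59.8, 78.0 and 45.2 against 496, 1296 and 1125 (3.89 ± 0.42 log2, 0.00423). SLAMF1 had 1.73, 12.1 and 4.03 scaled reads in wild-type libraries and none in S80A libraries, and did not pass without S80A replicate 1 (0.0504), S80A replicate 2 or 3 (0.0829 and 0.0653) or wild-type replicate 3 (0.0748).

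Of 17 listed unfolded protein and oxidative stress genes 4 were higher and 5 lower (23.5% and 29.4%, against 20.3% and 10.7% of all genes), and 1 and 2 were called without S80A replicate 2 or wild-type replicate 3, 2 and 2 without wild-type replicate 2, and 2 and 4 without wild-type replicate 1 or S80A replicate 3. Of the 5 lower genes 4 were metallothioneins, MT1E, MT1X, MT1M and MT2A. MT2A was at 269, 257 and 227 scaled reads in wild-type and 60.8, 51.2 and 34.6 in S80A libraries (-2.37 ± 0.24 log2, SE, adjusted p = 0.00369). Metallothionein genes are closely similar neighbours on chromosome 16, so the counting could divide their reads. MT1X (0.0185) and MT1M (0.0489) did not pass without 5 of the 6 single libraries (up to 0.0649 and 0.143), and MT1M, with a mean of 4.63 against 0.700, was also not called by edgeR (0.0767) or DESeq2 (0.149). XBP1, a driver of the unfolded protein response, was the fifth, at 1312, 1852 and 1736 against 861, 964 and 955 (0.0156, but up to 0.0649 without wild-type replicate 2 or 3 or S80A replicate 2). HMOX1, haem oxygenase, was higher, at 2824, 3607 and 3846 against 6315, 6729 and 5999 (0.90 ± 0.15 log2), a call that held under all 17 alternatives.

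Of 15 listed glucose and immunometabolism genes 3 were higher and 1, KYNU, lower, which is 20% and 6.67% against 20.3% and 10.7% of all genes. HIF1A, the hypoxia-inducible factor subunit, was at 1399.5, 1394 and 1613 scaled reads in wild-type and 2934, 3269 and 3457 in S80A libraries (1.13 ± 0.11 log2, SE, adjusted p = 0.00320). SLC2A3, a glucose transporter, was at 66.7, 80.4 and 62.1 against 174, 191 and 206 (0.00452), and PFKFB3, an activator of glycolysis, at 1253, 1412 and 1381 against 2093, 2148 and 1926 (0.00863). Of 10 listed cholesterol and lipid genes 3 were higher and 1 lower (30% and 10%). ABCG1, a cholesterol efflux pump, was at 104, 183 and 178 against 409, 1021 and 714 (0.0151), and ACSL1, which activates fatty acids, at 938, 1191 and 1252 against 2016, 2266 and 2474 (0.00799). INSIG1, which restrains sterol synthesis, was lower, at 1398, 1351 and 1480.2 against 614, 823 and 946 (0.0188, but 0.0598 to 0.0737 without wild-type replicates 1 to 3 or S80A replicate 2).

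Some markers of the state of differentiation differed between the genotypes. Of 21 precursor and monocyte genes 4 were listed, and their summed level was 2371 to 2661 scaled reads in wild-type and 480.1 to 846 in S80A libraries. GFI1, a repressor of myeloid precursors, made up most of that sum, at 2245, 2509 and 2214 against 745, 438 and 479.6 (-2.10 ± 0.22 log2, SE, adjusted p = 0.00380). CD38, a surface enzyme of immature and activated cells, was at 133, 86.1 and 102 against 46.8, 14.0 and 10.5 (0.0303). CD34 was at or near 0 in both groups, and CEBPE did not pass. Of the macrophage markers MERTK was higher and CD163 lower, by the values above, and CD14 was not called, with 2285, 2549.7 and 2630.5 against 2245, 6211 and 3529.6 (adjusted p = 0.294). The part of differentiation state in the other differences was not tested, and in bulk libraries fewer cells of a kind and less RNA per cell cannot be told apart. Of the signs of RNA quality only MALAT1 and NEAT1 were listed, neither was called, and their sum was 1277 to 1596 in wild-type and 1731 to 2223 in S80A libraries. CD38 did not pass without wild-type replicates 1 to 3 or S80A replicates 2 and 3 (up to 0.100).

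**Figure D3:**
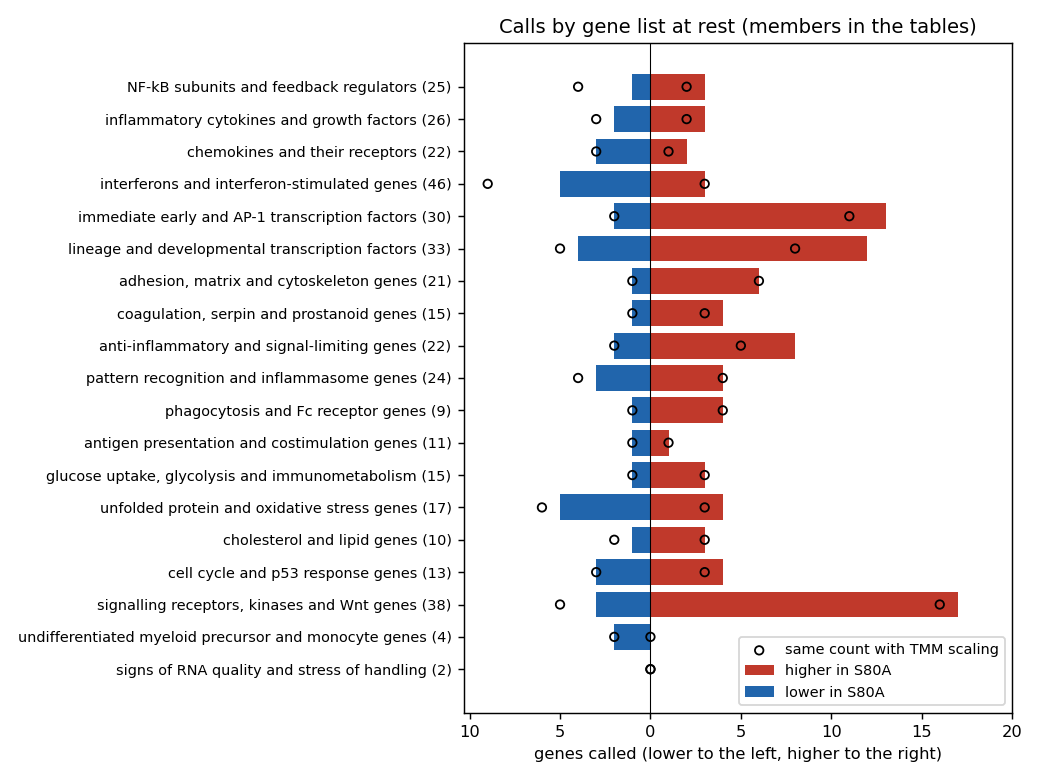
Number of listed members called at rest for each of the 19 gene lists, with genes lower in S80A to the left (blue) and higher to the right (red) of 0, and the number of members in the tables in brackets. Open circles give the same counts with TMM factors, and the signalling, immediate early and lineage factor lists have the longest bars to the right under both scalings. The lists were chosen with earlier results of these data known, so the counts are a description.

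S80A replicate 1 differed from its group mostly by lying nearer wild type. Among the 666 higher genes the median distance from the wild-type mean was 1.09 log2 for S80A replicate 1, 1.39 for replicate 2 and 1.41 for replicate 3. Among the 350 lower genes it was -1.17, -1.40 and -1.43. Replicate 1 was the S80A library nearest the wild-type mean in 625 of the 1016 called genes, replicate 2 in 146 and replicate 3 in 245. Of the 305 genes in which replicate 1 stood apart it was higher than the others in 102 and lower in 203. In 237 of the 305 it was nearer the wild-type mean than the mean of replicates 2 and 3 was, in 81 it was within the range of the wild-type libraries, and in 68 it was further away. The part of culture, handling or a mixture of cells in this was not tested.

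**Figure D4:**
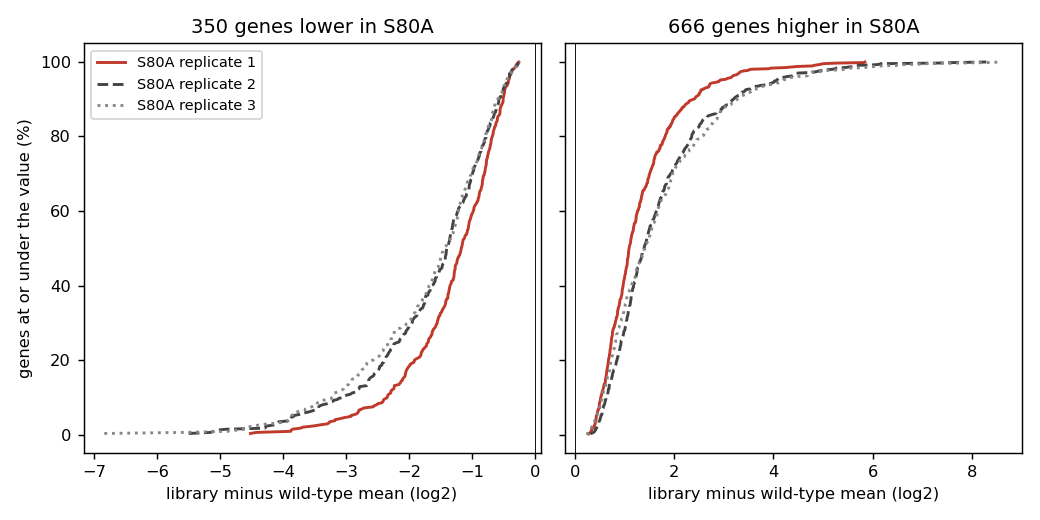
Distance of each S80A library from the wild-type mean at rest (x axis, log2) as cumulative share of genes (y axis, %), for the 350 lower genes (left) and the 666 higher genes (right). The line of S80A replicate 1 (red, solid) is nearer 0 than the lines of replicates 2 (dashed) and 3 (dotted) in both panels, with medians of -1.17 and 1.09.

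The following are the 10 genes in which replicate 1 stood furthest apart among those with at least 100 scaled reads in some resting S80A library. Leaving out replicate 1 narrows the S80A spread of genes chosen in this way, so their p-values without it are a description. TNFRSF11A, the receptor RANK, was at 589, 492 and 550.1 scaled reads in wild-type libraries, at 556 in S80A replicate 1 and at 104 and 73.5 in S80A replicates 2 and 3. Replicate 1 lay within the wild-type range, and the adjusted p of limma was 0.141 with it and 0.00226 without it. GPR34, a lysophospholipid receptor, was at 122, 103 and 165 in wild type, at 129 in replicate 1 and at 18.6 and 16.8 in the others (0.142 with and 0.00353 without replicate 1). CD70, a TNF family ligand, was at 1730.4, 1412 and 1168, then at 787, and at 171 and 96.6 (0.0558 and 0.00318). SLC5A3, an inositol transporter, was at 288, 360.3 and 447, then at 222, and at 983 and 1349 (0.372 and 0.0104). LRFN5, a synaptic adhesion protein, was at 1.73, 8.04 and 10.5, then at 7.97, and at 57.4 and 102 (0.128 and 0.0232). MAFF, a small MAF factor, was at 32.9, 54.7 and 79.9, then at 109.6, and at 539 and 579 (0.0476 and 0.00586). HEY2, EDNRA and CSF1, given above, belong to the same 10 and were called with and without replicate 1. SYT6, a synaptotagmin, was the exception in direction, at 32.9, 25.7 and 31.5 in wild type, at 136 in replicate 1 and at 28.7 and 23.1 in the others, and it was called neither way (0.550 and 0.507). After LPS the S80A library numbered 1 also stood apart most often, in 454 genes against 67 and 84 for S80A replicates 2 and 3 and 165, 60 and 37 for the wild-type libraries. In 76 of the 305 genes it stood apart on the same side at both times, and in 14 on opposite sides.

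The 6 libraries taken after LPS measure the genotype difference in other libraries of the same cells. Deviations from the group means at rest and after LPS correlated across genes for each replicate number. The correlations were 0.299, 0.286 and 0.196 for S80A and 0.343, 0.207 and 0.153 for wild-type replicates 1 to 3. Shared calls are therefore no independent repeat. There 988 genes (30.1%) were higher and 582 (17.7%) lower in S80A cells, so 47.9% were called in either direction. Of the 1016 genes called at rest 608 were called the same way after LPS, 409 higher and 199 lower, while 28 were called the opposite way and 380 were not called. The sign was the same in 584 of the 666 higher and 299 of the 350 lower genes. The median difference after LPS was 1.17 log2 for the higher and -1.11 for the lower genes, against 0.19 over all genes. MMRN2 was at 69.3, 69.6 and 73.9 scaled reads in wild-type and 1463, 3187 and 3821 in S80A libraries after LPS (5.18 ± 0.35 log2, SE, adjusted p = 0.000209). HCP5 was at 299.5, 275 and 219 against 0, 1.15 and 1.20 (-7.29 ± 0.39 log2, 0.000133). CDKN1A was at 12681, 9322 and 10737 against 48741, 67672 and 54913 (2.39 ± 0.19 log2, 0.000254), and PLK1 at 990.2, 786 and 790.1 against 201, 71.3 and 89.9 (-2.95 ± 0.37 log2, 0.000867). The groups of these 4 genes did not overlap after LPS either, as was so for 59% of all genes there. The count of 608 fell to 400, 366 and 368 when wild-type replicate 1, 2 or 3 at rest was left out, and to 357 when S80A replicate 2 at rest was.

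The change of the difference (after LPS minus at rest) was called for 192 of the 1016 genes by the limma interaction term over all 12 libraries, against 508 (15.5%) of all 3281 genes. Of the 192, 123 were higher and 69 lower at rest, and in 95 and 53 of them the difference was smaller or reversed after LPS. Choosing genes by their difference at rest favours such a change. So does the choice of the listed genes by their LPS response in these same resting libraries, because a gene such as HEY2, high in S80A cells at rest, can enter the tables by falling there. A smaller difference after LPS is therefore a description and no test. With the replicate number as a block the count was 303. It was 290 without S80A replicate 1 at rest and 438 without both S80A libraries numbered 1, and it fell to 99, 78 and 69 without wild-type replicates 1, 2 and 3 and to 74 without S80A replicate 2. NR5A2 was at 38.8, 37.4 and 21.4 scaled reads in wild-type and 41.5, 12.7 and 44.4 in S80A libraries after LPS, overlapping groups, and its difference changed by -6.23 ± 0.79 log2 (SE, adjusted p = 0.00101). PLK2 was at 385, 236 and 273 against 247, 322 and 900.4 (-4.68 ± 0.67 log2, 0.00149), and HEY2 at 1.17, 3.11 and 1.07 against 1.12, 11.5 and 19.2 (-5.95 ± 1.18 log2, 0.00721). CXCR4, lower at rest, was at 522, 458 and 573 against 715, 337 and 355 (2.06 ± 0.37 log2, 0.00474). In KLF4, JUN and DUSP1, higher at rest, the change was -1.89, -1.05 and -1.05 log2, and for JUN and DUSP1 S80A libraries were still higher after LPS (0.0303 and 0.0122).

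The 28 genes called in opposite directions at rest and after LPS crossed over, and some of them are given here. KCNA3, a voltage-gated potassium channel of leukocytes, was at 78.8, 92.5 and 85.5 scaled reads in wild-type and 4.98, 3.88 and 3.15 in S80A libraries at rest (-4.13 ± 0.22 log2, SE, adjusted p = 0.00173). After LPS it was at 509, 387 and 424 against 1237, 1399 and 829.7 (1.37 ± 0.24 log2, 0.00313). The direction reversed in full, with no overlap at either time and with all 3 S80A libraries alike at rest. CCRN4L (present symbol NOCT), the circadian deadenylase-like gene nocturnin, was at 223, 252 and 251 against 68.7, 65.9 and 71.4 at rest and at 1103, 1297 and 1402 against 3346, 4522 and 3308 after LPS. MYC was lower at rest by the values above and higher after LPS, at 1301, 1323 and 1587 against 3294, 2162 and 2766 (0.95 ± 0.21 log2, 0.00723). IL18 also went from lower to higher, to 344, 310.4 and 278 against 625, 654 and 613 (1.02 ± 0.18 log2, 0.00293). SLC2A3 and AQP9, a glycerol channel, went from higher to lower. SLC2A3 stood at 258, 479.6 and 299.8 against 193, 161 and 99.5 after LPS (-1.19 ± 0.33 log2, 0.0202), and AQP9 at 79.9, 46.7 and 71.7 against 15.7, 11.5 and 8.39 (-2.39 ± 0.35 log2, 0.00144), from 0 in all wild-type libraries and 1.99, 9.31 and 2.10 in S80A libraries at rest. The call of AQP9 at rest was lost without wild-type replicate 1, 2 or 3 (0.0776 to 0.0836) and with a pseudocount of 8 (0.0930).

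**Figure D5:**
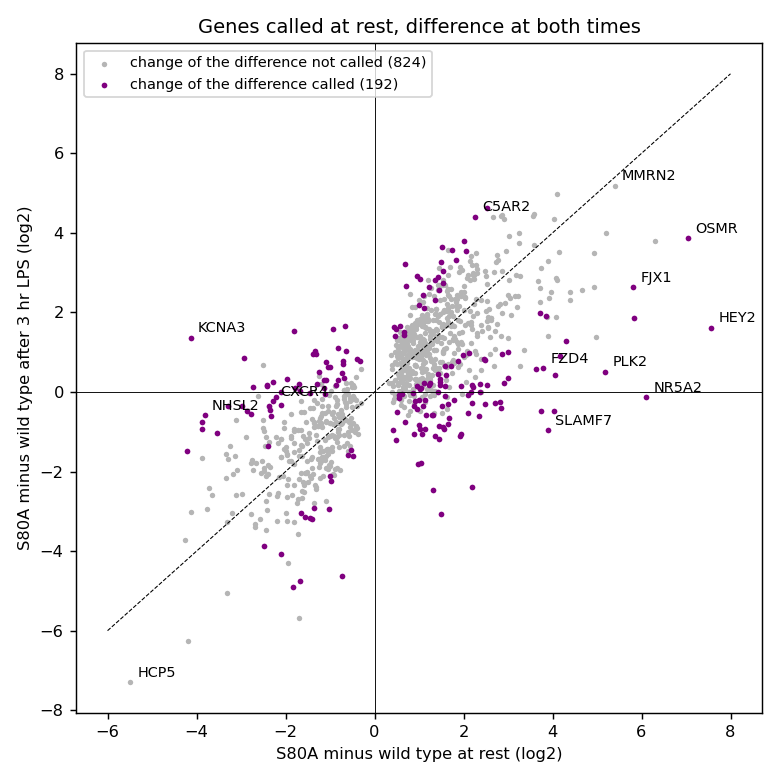
S80A minus wild-type difference at rest (x axis) and after 3 hr of LPS (y axis), both in log2 of scaled reads + 1, for the 1016 genes called at rest, with the dashed line marking equal differences. The 192 genes whose difference changed by the interaction test (purple) include NR5A2 and PLK2 near 0 after LPS and KCNA3 above 0, while MMRN2 and HCP5 keep their sign at both times.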

How the data were processed

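PMA-differentiated THP-1 cells of 2 genotypes, at rest and after LPS, gave 12 libraries. Stranded TruSeq libraries of poly(A) RNA were read on a NextSeq 500 (single-end, 75 bases), per the labels' protocols. HISAT and HTSeq, with FastQC, StringTie, Cuffdiff, DESeq2 and the build GRCh38, are named in the submitters' processing notes. For versions, annotation and strand setting the sources used here give nothing. The authors deposited a signal per library, which the values show to be counted reads over a size factor for each library (0.953 to 1.29 at rest), with 100% of values whole reads within 0.01. Every gene in the tables has a deposited adjusted p-value for LPS below 0.01 and a deposited log2 fold change beyond 1 in size, and the deposited p-values and log2 fold changes were not used as results.

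Resting libraries were compared with limma 3.58.1 (R 4.3.3, trended variance) on log2(signal + 1), over all 3281 genes with no filter, with Benjamini-Hochberg adjustment and a threshold of 0.05. This scale understates differences of genes with few reads. The libraries after LPS were fitted in the same way, and the change of the difference with an interaction term over all 12. Alternatives were pseudocounts of 0.5 and 8, a filter at a mean of 10, no variance trend, 1 fit of all libraries, edgeR 4.0.16 and DESeq2 1.42.0 on the recovered reads, TMM and median-of-ratios factors, a replicate block, and leaving out each resting library. Leaving out both S80A libraries numbered 1 was added after the data were seen. The main fit did not pair the replicates, and only the replicate block does. At rest, deviations from the group means correlated across genes between the genotypes for every shared replicate number (0.188, 0.245 and 0.259). For unlike numbers the correlations were between -0.228 and -0.00216. Counts were simulated for 3281 genes without pairing of replicates, and 200 genes with a mean of at least 10 were changed. The test found 19% of the differences of 1 log2 and 72% of those of 2 log2, and 10 of its 101 calls were false. In the data 31% of genes were called, so these shares are not the power of the resting comparison.

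The members and the 19 gene lists were chosen with earlier results of these data known. The rule for named genes took NFKB1, the 12 largest called differences in each direction with a group mean of at least 100 scaled reads, up to 3 called members of each list by p, and the 10 genes with S80A replicate 1 furthest apart and at least 100 scaled reads in some resting S80A library, 83 in all. Other genes named were chosen after their values were seen: KCNA3, CCRN4L, AQP9, FAM65C, and the list members outside these, among them CDC20, AURKA, PLK3, MYC, ATF3, BATF3, HES1, PDGFA, KDR, FLT1, NRP2, RGS16, P2RY2, P2RX7, ICAM1, MMP12, CCL20, IRF8 and NOD2. Gene positions are from GENCODE 29 on GRCh38 (1 place for 3042 genes). Antisense partners may share reads, since the strand setting is not given. Promoters are from RefSeq (GRCh38.p14). The S80A minus wild-type ratio of groups with 1 to 3 reads has an exact 95% counting interval. The values of 1 gene of the named set are not reported here.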

Additional observations from a re-analysis of the deposited data

Results flagged for a closer look

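For 26 of the named genes the S80A minus wild-type difference itself differed between rest and 3 hr of LPS, by the limma interaction test over 12 libraries. The values below are the difference after LPS minus that at rest, in log2, and choosing most of these genes by their difference at rest favours such a change. Among genes higher in S80A cells at rest, the change was -6.23 for NR5A2, -5.95 for HEY2, -4.86 for SLAMF7, -4.68 for PLK2, -3.20 for FZD4, -3.19 for OSMR, -3.19 for FJX1, -3.01 for LBH and -2.98 for TPPP. It was -2.63 for SLC2A3, -1.89 for KLF4, -1.05 for DUSP1, -1.05 for JUN and -0.99 for TGFBR2. Among genes lower at rest, it was 3.24 for NHSL2, 2.51 for CCNA1, 2.06 for CXCR4, 1.88 for VDR, 1.66 for IL18, 1.49 for SERPINB8 and 1.08 for TNFAIP2, all toward a smaller or opposite difference. In a further 5 genes the difference grew with LPS, by 2.15 for C5AR2, 1.41 for MERTK, 1.34 for TLR6 and 1.19 for TLR1, all higher in S80A cells, and by -1.59 for PIK3CD, lower in S80A cells.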

How the results depend on the processing

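Of the 83 named genes 76 were called, and 20 lost the call when 1 or another single library was left out. Of the 76, 56 were called under every alternative that tested them. There were 17 alternatives, but 16 for LIF and SLAMF1, which the filter at a mean of 10 removed. With 3 libraries per group, 19% of the simulated differences of 1 log2 were found. In the data 455 of the 666 higher and 239 of the 350 lower genes differed by over 1 log2, so smaller differences were called too. Leaving out 1 resting library at a time gave 333 to 794 higher genes, 180 to 413 lower genes, 357 to 686 genes called the same way after LPS and 69 to 290 genes whose difference changed. TMM factors gave 526 lower genes and a median difference of -0.000366 log2, and median-of-ratios factors a median of 0.000592. Genes whose difference changed with LPS numbered 309 by DESeq2, 303 with the replicate block and 438 without both S80A libraries numbered 1. Genes in which S80A replicate 1 stood apart numbered 181 with a pseudocount of 8 and 47 with a gap of 2 log2. NFKB1, never called, was at -0.17 log2 with TMM factors, -0.14 with median-of-ratios factors, and between -0.054 and 0.19 without 1 library, below 0 without wild-type replicate 2 (-0.0103) or S80A replicate 3. SYT6, never called, was at -0.21 without S80A replicate 1, at rest alone or at both times, and at up to 1.05 without another library. The replicate block ended 3 and added 2 calls among the named genes, and gave 701 higher and 360 lower genes at rest. Causes of these shifts were not tested.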
